A study of Mus musculus with 6 samples.

Results

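The BCL2 family, the caspases and the inhibitors of apoptosis were examined as 1 group of genes in cortical bone tubes cultured with or without parathyroid hormone (PTH). The members were chosen by gene symbol alone: every symbol of the array that names a BCL2-like gene, a caspase or a *Birc* gene, plus a fixed list holding *Bax*, *Bak1*, *Bok*, *Mcl1*, the BH3-only genes, *Apaf1*, *Diablo*, *Cflar* and *Trp53*. The rule found 99 of the 45281 probes and 45 of the 31508 gene symbols, and 28 of the 45 genes had more than 1 probe. Bone tubes are the shafts of tibia and femur after the marrow was flushed out and surface cells were digested with collagenase and trypsin. All came from C57BL6 mice given as 3 months old in the sample labels (the methods give a slightly wider range), and all were kept overnight in medium with fetal calf serum before the comparison began. The control group (3 arrays) received no hormone for 24 hours and the PTH group (3 arrays) received Pth 1-34, the N-terminal part of the hormone, at 250 nM for 24 hours. Each preparation combined bones of several mice, so an array stands for a pool and not for an animal, and where the pools were not independent the p-values measure technical spread.

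Cells die by the mitochondrial route of apoptosis when the effector proteins BAX and BAK open pores in the outer mitochondrial membrane. Survival proteins such as BCL2, MCL1 and A1 hold the effectors in check, and BH3-only proteins such as BIM, PUMA and BID release them. Cytochrome c that leaves the mitochondria joins APAF1 and activates initiator and then executioner caspases, which inhibitor of apoptosis proteins restrain. In bone, osteocyte death and the anti-apoptotic action of intermittent PTH on osteoblast lineage cells are long-studied subjects.

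The labelled cells were checked first. The osteocyte genes *Dmp1*, *Mepe* and *Phex* were above background on all 6 arrays, whereas *Fgf23* was above background on none. Genes of neutrophils, macrophages and red cells were also above background on all 6 arrays, so the tubes held RNA of other cells. In such bulk RNA, fewer cells of a type and less RNA per cell cannot be told apart. The share of probes above background (a detection p under 0.05) was 34.2% to 38.4% per array, and the arrays correlated with each other at 0.975 to 0.985 over the probes tested.

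The sequences upstream of the members that stood out most in this comparison are shown here. *Bcl2a1b*, *Bcl2a1c* and *Bcl2a1d* are copies of the A1 gene, a blood-cell survival gene of the BCL2 family. Their promoters in RefSeq (GRCm38.p6) share a window that was 95% identical between *Bcl2a1b* and *Bcl2a1c* (7 mismatches) and 95% identical between *Bcl2a1b* and *Bcl2a1d* (1 mismatch and 6 gapped bases), while *Bcl2a1c* and *Bcl2a1d* were 90.7% identical. The windows lie on chromosome 9 at chr9:89199089-89199228 (plus strand), chr9:114329885-114330024 (plus strand) and chr9:88731851-88731984 (minus strand). Capitals mark TGACG, the core of the cAMP response element, shown because the PTH receptor signals through cAMP.
Bcl2a1b: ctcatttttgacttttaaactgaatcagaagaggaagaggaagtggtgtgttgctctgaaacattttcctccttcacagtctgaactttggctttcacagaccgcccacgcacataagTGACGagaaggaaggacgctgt
Bcl2a1c: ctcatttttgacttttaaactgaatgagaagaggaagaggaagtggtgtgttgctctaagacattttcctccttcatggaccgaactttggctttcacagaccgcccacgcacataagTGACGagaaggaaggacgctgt
Bcl2a1d: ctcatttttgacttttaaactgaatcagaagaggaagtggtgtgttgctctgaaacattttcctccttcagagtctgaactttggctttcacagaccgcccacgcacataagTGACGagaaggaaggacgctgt

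For *Mcl1*, a short-lived survival protein, and *Bax*, the pore-forming effector, the 150 bases before the annotated start are given with no capitals. They are chr3:95658571-95658720 (plus strand) and chr7:45466899-45467048 (minus strand).
Mcl1: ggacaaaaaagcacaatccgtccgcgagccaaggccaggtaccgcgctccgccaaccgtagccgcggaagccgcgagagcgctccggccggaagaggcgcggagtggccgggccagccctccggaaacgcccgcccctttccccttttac
Bax: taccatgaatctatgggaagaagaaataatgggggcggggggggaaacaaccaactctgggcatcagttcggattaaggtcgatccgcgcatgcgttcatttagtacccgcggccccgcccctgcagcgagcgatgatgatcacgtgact

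Promoters were found for 39 of the 45 members. TGACG, searched on both strands over the 250 bases before the start, was present in 12 of the 39 member genes (30.8%) and in 19.8% of 26996 genes. The copies *Bcl2a1b*, *Bcl2a1c* and *Bcl2a1d* are among the 12 and share 1 site, so they are not independent matches. The full element TGACGTCA, which contains TGACG, was present in 1 member, *Birc2* (2.56%, against 1.77% of all genes). The AP-1 motif TGANTCA was present in 2 members, the copies *Bcl2a1b* and *Bcl2a1d* (5.13%, against 7.82%), and the kappaB motif in 5 (12.8%, against 4.45%). These are matches of letters and carry no measurement of binding.

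Of the 45 member genes, 28 were above background on all 6 arrays by their best probe, 10 on some arrays and 7 on none. By the filter, a detection p under 0.05 on at least 3 of 6 arrays, 48 probes of 29 genes were tested. Levels are given as normalized log2 signal (background corrected, quantile normalized), which can be set against each other between arrays for 1 probe but not between probes. Of the members not tested, the BH3-only genes *Bmf* and *Pmaip1* (the gene of NOXA) were above background on 1 array each. *Cflar*, an inhibitor of caspase-8 activation, and *Birc4*, the older symbol of *Xiap*, were above background on none. Most of the *Birc1* copies, which encode NAIP proteins, also went untested, as did *Bcl2l10*, *Bcl2l14*, *Birc3*, *Birc6*, *Casp12* and *Casp14*.

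No member gene passed an adjusted p under 0.05 (limma, adjusted over all 16214 probes tested), where 207 of 11979 genes (1.73%) did. That whole-array count was itself 50, 53 and 78 without control array 1, 2 and 3 and 76, 48 and 75 without PTH array 1, 2 and 3. The lowest adjusted p among the members was 0.138 (limma). The methods' t-test, adjusted likewise, also called 0 members, beside 0.76% of all genes. The methods name that test for comparisons of a pair of groups in general, not for these arrays. At an unadjusted p under 0.05 there were 6 of 29 member genes, 20.7%, beside 14.9% of all genes. The 4 that were higher with PTH (7.51% of all genes were) were *Bcl2a1b*, *Bcl2a1c*, *Bcl2a1d* and *Mcl1*, and the 2 that were lower (7.39% of all genes) were *Bax* and *Casp4*. The *Bcl2a1* genes are copies of 1 gene and not independent results. Each copy is counted here and among the genes without overlap, so the shares of members are not shares of independent genes. The PTH and control arrays did not overlap for 6 of 29 member genes, 20.7%, close to the 21.9% of all genes. Of these, 5 were higher with PTH (11.1% of all genes) and 1 was lower (10.8%). The median log2 fold change was 0.00 over the members and 0.01 over all genes, and 15 members had an estimate above 0 and 14 below, where 49.2% of all genes lay below. The count of 6 at an unadjusted p under 0.05 was 2 without control array 1, 2 without control array 2 and 2 without PTH array 3, where 11.6%, 12.2% and 14.8% of all genes had such a p. The count of 6 that did not overlap was 12 without control array 3 and 11 without PTH array 1 or PTH array 2. With 2 arrays in a group fewer values have to stay apart, and in these 3 settings 33.9%, 31.0% and 31.1% of all genes did not overlap.

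**Figure D1:**
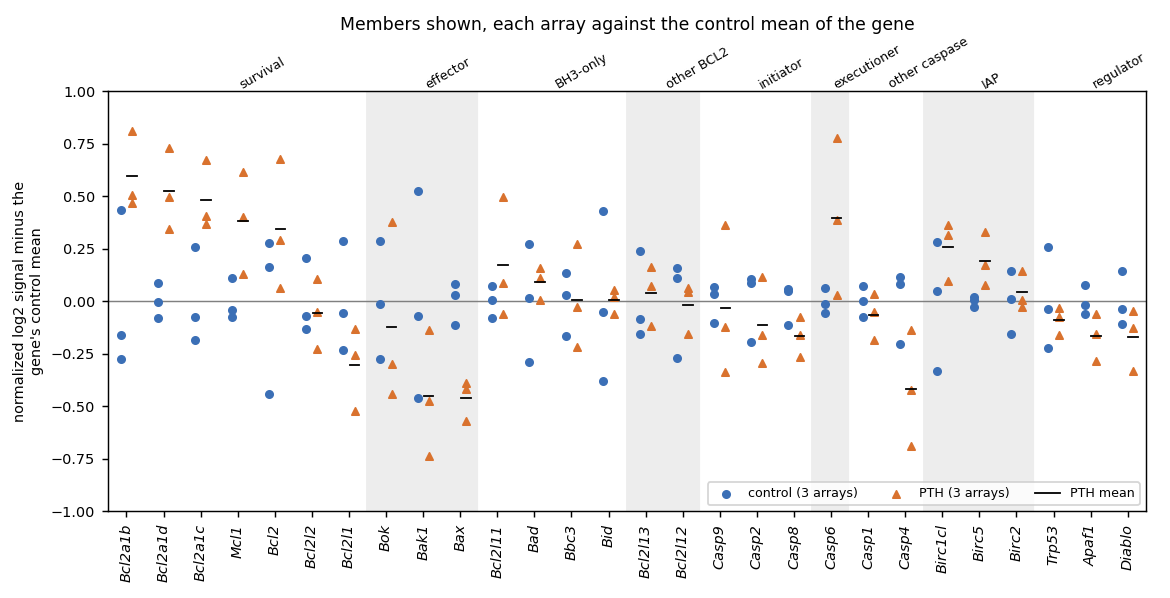
Normalized log2 signal of the brightest probe of 28 of the 29 members tested, on each of 3 control arrays (circles) and 3 PTH arrays (triangles), minus the gene's control mean. Bars mark the PTH mean and shading the role classes. The triangles lie clear of the circles for *Bax* (below) and for the *Bcl2a1* copies, *Mcl1* and *Birc5* (above).

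The precision of 3 arrays a group can be read from the intervals. The standard error of a member's log2 fold change ran from 0.12 to 0.26 (log2), with a median of 0.16. The 95% interval included 0 for 23 of 29 genes, lay within 1 log2 unit of 0 for 27, and lay within a 1.5-fold change either way for 17. The estimate itself was under 1.5-fold for 28 of 29. On data simulated from these arrays, 2 of 50 probes changed by 0.5 on the log2 scale and 26 of 50 changed by 1 were recovered. The largest estimate by the brightest probe of a member was 0.59, and a dimmer *Bcl2a1d* probe gave 0.88.

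The survival genes held 4 of the 6 members with the lowest p. *Bcl2a1d* read 8.40, 8.48 and 8.57 in control and 8.98, 8.83 and 9.21 with PTH. The groups did not overlap, and the log2 fold change was 0.52 (SE 0.14, 95% interval 0.20 to 0.85), or 1.44-fold (limma adjusted p = 0.138). A dimmer *Bcl2a1d* probe, above background on 2 control and 3 PTH arrays, read 4.55, 5.14 and 5.34 in control and 5.84, 6.29 and 5.53 with PTH, and these also did not overlap (0.88, SE 0.26, limma adjusted p = 0.17). *Bcl2a1b* read 7.53, 7.42 and 8.13 in control and 8.20, 8.16 and 8.50 with PTH. The groups stayed apart by a narrow margin, with control array 3 the highest of its group, and the log2 fold change was 0.59 (SE 0.21, 95% interval 0.11 to 1.08, limma adjusted p = 0.236). *Bcl2a1c* read 5.71, 5.82 and 6.15 in control and 6.26, 6.30 and 6.57 with PTH, again without overlap (0.48, SE 0.16, 95% interval 0.11 to 0.85, limma adjusted p = 0.219). Probe sequences were not used, so it is not known how far the 3 copies were measured apart, and they are not independent results.

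A1 is a gene of blood cells, so the marker lists of such cells stand beside it. Of 10 neutrophil genes tested, 5 were called lower with PTH and 1, *Mmp9*, which is also an osteoclast gene, higher. The summed linear signal of a list, given here and below, is weighted to its brightest genes. That of the neutrophil list was 56931 to 58123 on the control arrays and 40137 to 45138 on the PTH arrays. Of 5 osteoclast genes tested, 3 were called higher, *Mmp9* among them, and none lower. The summed signal of the osteoclast list was 11954 to 13432 in control and 16193 to 20706 with PTH. Its brightest genes were *Ctsk* (mean 13.23) and *Mmp9* (mean 12.23), so the sum does not show a rise across the list. *Ctsk* differed by 0.36 and was not called (SE 0.15, limma adjusted p = 0.328), and *Mmp9* differed by 0.73. *Calcr* and *Atp6v0d2* of that list were above background on no array. Of 3 genes tested from the list named mast cell, *Mcpt8* and *Mcpt1* were called higher. However, *Mcpt1* was above background on none of the control arrays and was tested only through the PTH arrays, where it was high. The third, *Kit*, differed the other way, by -0.37, with groups that did not overlap (SE 0.14, limma adjusted p = 0.259). The summed signal of the mast cell list was 444 to 502 in control and 742 to 804 with PTH. Its genes *Cpa3*, *Mcpt4* and *Mcpt6* were above background on no array, so the sum does not show a rise across the list. None of 11 macrophage genes was called by limma, although 6 had an unadjusted p under 0.05 (5 lower and 1 higher). Of the 11 estimates, 9 were below 0 and 2 above. The summed signal of the list, 12 genes on the array, was 43019 to 44327 in control and 40858 to 45211 with PTH. This sum is weighted to its brightest genes, *Lyz* (mean 14.74) and *Lyzs* (mean 13.09), which differed by -0.02 and 0.07. The B lymphocyte genes *Cd79a*, *Ms4a1* and *Pax5* were above background on no array, 1 of 6 B lymphocyte genes tested was called higher, and the summed signal was 420 to 442 in control and 395 to 470 with PTH. The part of these cells in the *Bcl2a1* values was not tested.

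*Mcl1* read 10.62, 10.59 and 10.77 in control and 10.79, 11.06 and 11.27 with PTH. The lowest PTH array was just above the highest control array, and the difference was 0.38 on the log2 scale (SE 0.15, 95% interval 0.02 to 0.74), or 1.30-fold (limma adjusted p = 0.308). *Bcl2l2*, the gene of BCL-w, had overlapping groups at 9.12, 9.39 and 9.05 in control and 9.14, 8.96 and 9.29 with PTH, a difference of -0.06 (SE 0.15, limma adjusted p = 0.908). *Bcl2l1*, the gene of BCL-xL, differed by -0.30 (SE 0.18, limma adjusted p = 0.493). *Bcl2* itself depended on the probe. Its brightest probe gave 0.34 (SE 0.23, limma adjusted p = 0.569) and its other 3 tested probes gave -0.00, -0.23 and -0.48, none with an unadjusted p under 0.05.

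**Figure D2:**
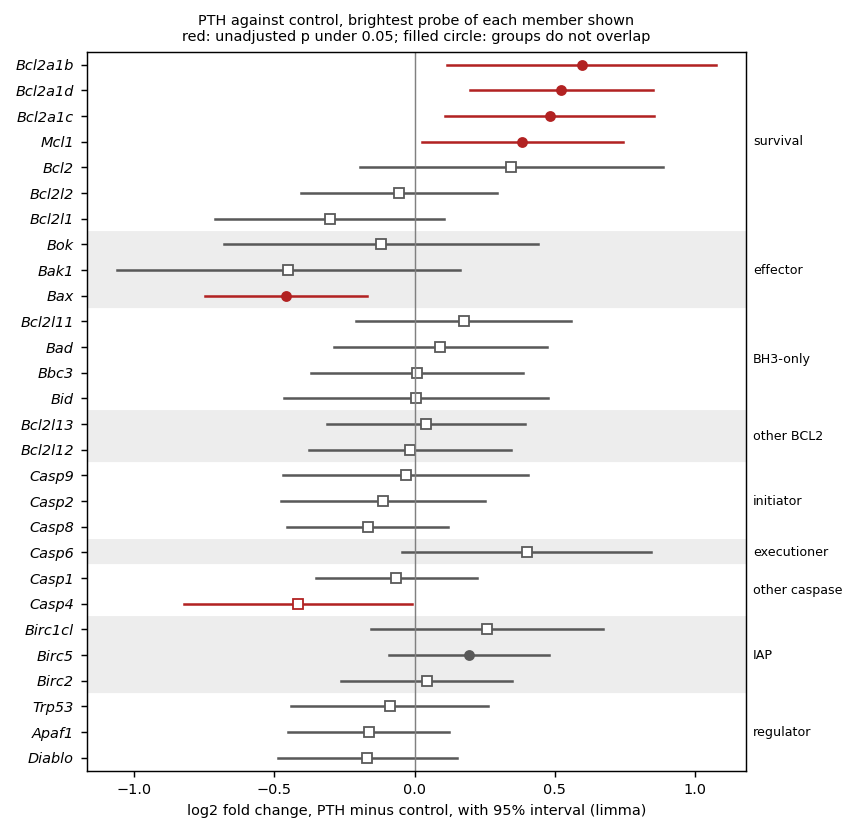
Log2 fold change of PTH over control with its 95% interval (limma) for the brightest probe of 28 of the 29 members tested, ordered by role. Red marks the 6 genes with an unadjusted p under 0.05 and filled circles the 6 genes whose groups do not overlap, and the other intervals shown include 0.

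Among the pore-forming effectors, *Bax* was lower with PTH. It read 9.64, 9.70 and 9.50 in control and 9.20, 9.04 and 9.22 with PTH, or 9.62 ± 0.10 (SD, n = 3) and 9.16 ± 0.10 (SD, n = 3). All 3 PTH arrays were below all 3 control arrays, a log2 fold change of -0.46 (SE 0.12, 95% interval -0.75 to -0.17), or 1.37-fold lower (limma adjusted p = 0.141). *Bak1*, the other main effector, gave a similar estimate with a much wider interval, -0.45 (SE 0.26, 95% interval -1.06 to 0.16, limma adjusted p = 0.499), and was above background on only 2 control arrays and 1 PTH array. *Bok* differed by -0.12 (SE 0.24, limma adjusted p = 0.871). *Trp53*, the gene of p53, which activates *Bax* transcription in other settings, read 9.30, 9.01 and 8.82 in control and 8.97, 9.01 and 8.88 with PTH, overlapping groups that differed by -0.09 (SE 0.15, 95% interval -0.44 to 0.26).

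The marker lists with genes called lower with PTH, other than the neutrophil list given above, are set beside *Bax* here. These lists were picked by direction. Others went the other way, with 3 of 5 osteoclast genes tested called higher and all 10 mitotic estimates above 0. Of the osteocyte genes 1 of 7 tested was called lower (*Mepe*), and 6 of the 7 estimates were below 0, with a median of -0.88. At an unadjusted p under 0.05 (limma) 5 were lower (7.39% of all genes were) and 1 was higher (7.51%). The summed linear signal of the list was 9756 to 10980 in control and 8186 to 9311 with PTH. The higher gene, *Gp38*, differed by 0.70, with groups that did not overlap (SE 0.14, limma adjusted p = 0.056). *Dmp1*, also not called, differed by -1.21, likewise without overlap (SE 0.24, limma adjusted p = 0.056). Of the osteoblast genes 2 of 5 tested were called lower, with a summed signal of 25880 to 26677 in control and 14679 to 15600 with PTH. *Runx2* was above background on no array. The methods describe the tubes as free of surface osteoblasts by histology. The paper counts *Ibsp* and *Col1a1* of this list as enriched in osteoblasts and osteocytes, so the list need not stand for a separate cell type. Both red cell genes tested, those of hemoglobin chains, were called lower, with a summed signal of 8666 to 10105 for the list in control and 2459 to 2718 with PTH, while *Klf1* was above background on none. The part of these cells in the *Bax* values was not tested.

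The 4 BH3-only genes tested lay near 0. *Bad* read 8.20, 8.51 and 8.76 in control and 8.49, 8.60 and 8.64 with PTH, with overlapping groups that differed by 0.09 (SE 0.16, limma adjusted p = 0.854). *Bcl2l11*, the gene of BIM, gave 0.17 (SE 0.17), and *Bid*, which links death receptors to mitochondria, gave 0.00 (SE 0.20, 95% interval -0.47 to 0.48). *Bbc3*, the gene of PUMA, gave 0.01 by its brightest probe (SE 0.16, 95% interval -0.37 to 0.39) and 0.22 and 0.60 by its dimmer probes. The less studied relatives *Bcl2l12* and *Bcl2l13* gave -0.02 and 0.04.

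Of the initiator caspases, *Casp2* read 9.58, 9.56 and 9.28 in control and 9.31, 9.59 and 9.18 with PTH, with overlapping groups that differed by -0.11 (SE 0.16, limma adjusted p = 0.805). *Casp8*, of the death receptor branch, gave -0.17 (SE 0.12, 95% interval -0.45 to 0.12) and *Casp9*, of the mitochondrial branch, gave -0.03 (SE 0.19, 95% interval -0.47 to 0.41). *Casp6*, an executioner, read 7.86, 7.98 and 7.90 in control and 7.94, 8.30 and 8.69 with PTH. Its PTH arrays were spread more widely (SD 0.37, against 0.06 in control), and 1 of them lay within the control range. The difference was 0.40 (SE 0.19, limma adjusted p = 0.397).

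The inflammatory caspases act in the release of interleukins and in lytic death. *Casp4*, as the array names it, read 7.11, 7.15 and 6.83 in control and 6.89, 6.34 and 6.61 with PTH. The highest PTH array lay above the lowest control array, and the log2 fold change was -0.42 (SE 0.17, 95% interval -0.82 to -0.01), or 1.33-fold lower (limma adjusted p = 0.325). Its other 2 tested probes gave -0.33 and -0.43. *Casp1*, with the narrower interval of -0.35 to 0.22, gave -0.07 (SE 0.12, limma adjusted p = 0.862).

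Of the inhibitor of apoptosis genes, *Birc5* encodes survivin, which also serves in cell division. It read 10.08, 10.07 and 10.04 in control and 10.39, 10.24 and 10.14 with PTH. The groups did not overlap, but the difference was small at 0.19 (SE 0.12, 95% interval -0.09 to 0.48, limma adjusted p = 0.534), and its other 2 tested probes gave 0.19 and 0.05, each with overlapping groups. Of 10 mitotic genes tested none was called by limma, 3 had an unadjusted p under 0.05, and all 10 estimates were above 0, with a median of 0.24. The summed linear signal of the mitotic list, 12 genes on the array, was 6267 to 6442 in control and 7316 to 7983 with PTH. This sum is weighted to its brightest gene, *Cenpa* (mean 11.58). *Cenpa* also had the largest estimate of the 10, 0.40, where the lowest, that of *Mki67*, was 0.02. The part of mitotic cells in the *Birc5* values was not tested. *Birc2*, the gene of cIAP1, gave 0.04 (SE 0.13) by its brightest probe and 0.47 (SE 0.23) by a dimmer one, and *Birc1cl* gave 0.26 (SE 0.18, limma adjusted p = 0.58).

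The regulators downstream of the pore gave small differences. *Diablo*, whose product counters the inhibitors of apoptosis, read 9.53, 9.72 and 9.46 in control and 9.44, 9.52 and 9.24 with PTH, with overlapping groups that differed by -0.17 (SE 0.14, 95% interval -0.49 to 0.15, limma adjusted p = 0.643). *Apaf1*, the caspase-9 scaffold, gave -0.16 (SE 0.12, 95% interval -0.45 to 0.12, limma adjusted p = 0.61) and 0.08 by its dimmer probe.

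**Figure D3:**
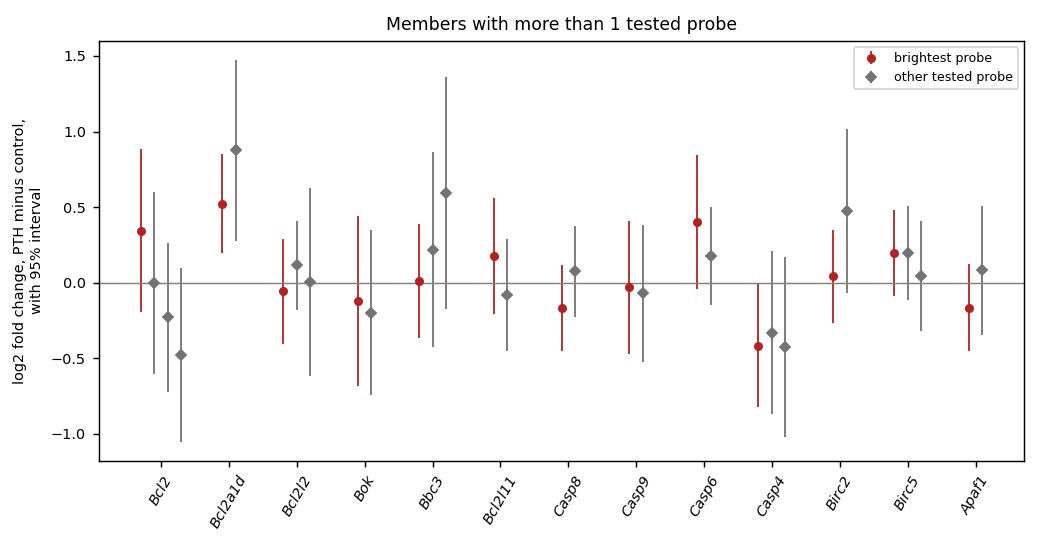
Log2 fold change of PTH over control with its 95% interval for every tested probe of the 13 members that had more than 1, with the brightest probe in red and the others in grey. The probes shared a sign for 8 genes and differed in sign for 5, among them *Bcl2*.

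Of the 13 members with more than 1 tested probe, 8 had probes of 1 sign, among them *Bcl2a1d*, *Casp4*, *Casp6* and *Birc5*. The probes differed in sign for *Apaf1*, *Bcl2*, *Bcl2l11*, *Bcl2l2* and *Casp8*. *Bax* and *Mcl1* rested on 1 tested probe each.

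**Figure D4:**
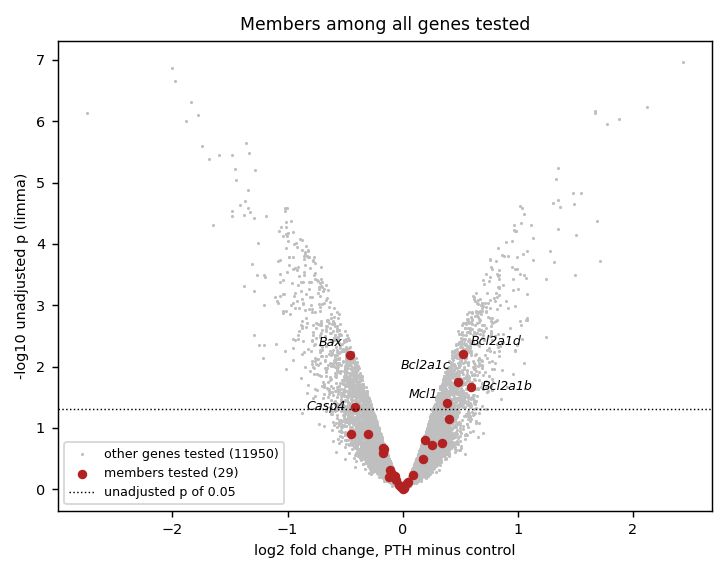
Log2 fold change of PTH over control (x axis) against -log10 of the unadjusted p (y axis, limma) for the 11979 genes tested, with the 29 members in red. The 6 named members lie above the dotted line at a p of 0.05 and within the cloud of other genes.

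Other genes of the apoptosis pathway were taken from a list of 75, of which 74 were on the array and 56 were tested. It covers death receptors and their adaptors, mitochondrial factors, caspase targets, p53 regulators and targets, and upstream regulators. By the adjusted threshold 1 of the 56 was called, beside 1.73% of all genes. *Trib3*, a pseudokinase of the endoplasmic reticulum stress response, read 10.56, 10.45 and 10.41 in control and 9.72, 9.64 and 9.61 with PTH, and fell by 0.82 on the log2 scale (SE 0.12, limma adjusted p = 0.019). With any 1 of the 6 arrays left out the count was 0, where 0.401% to 0.651% of all genes were called. At an unadjusted p under 0.05 there were 7 of 56 (12.5%), no more than the 14.9% of all genes. Beside *Trib3*, these were *Tnfrsf10b*, the TRAIL death receptor, at -0.71 (SE 0.16, limma adjusted p = 0.081), *Ddit3*, the stress factor CHOP, at -0.51, *Gadd45b* at -0.46, *Pdcd4* at -0.39, the kinase *Mapk8* (JNK1) at 0.60 and *Stk3* at 0.38. The groups did not overlap for 16 of the 56, these 7 among them, beside 21.9% of all genes. *Tnfrsf10b* read 10.40, 10.44 and 10.56 in control and 9.93, 9.88 and 9.47 with PTH. *Ddit3* read 9.59, 9.59 and 9.34 in control and 9.12, 9.26 and 8.60 with PTH. The median log2 fold change of the 56 genes was -0.05, beside 0.01 over all genes.

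The 6 members with an unadjusted p under 0.05 kept their signs under each of the 17 other settings tried. They were chosen for a low p on the same arrays that every setting reuses, so the kept signs add no support. The number of members called moved from 0 to 3 with quantile normalization and no background correction, where *Bax*, *Bcl2a1b* and *Bcl2a1d* passed, and to 4 with trended variances and array weights, where *Mcl1* passed as well. The calls over all 11979 genes moved in the same settings, from 207 to 589 (4.92%) and to 649 (5.42%).

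**Figure D5:**
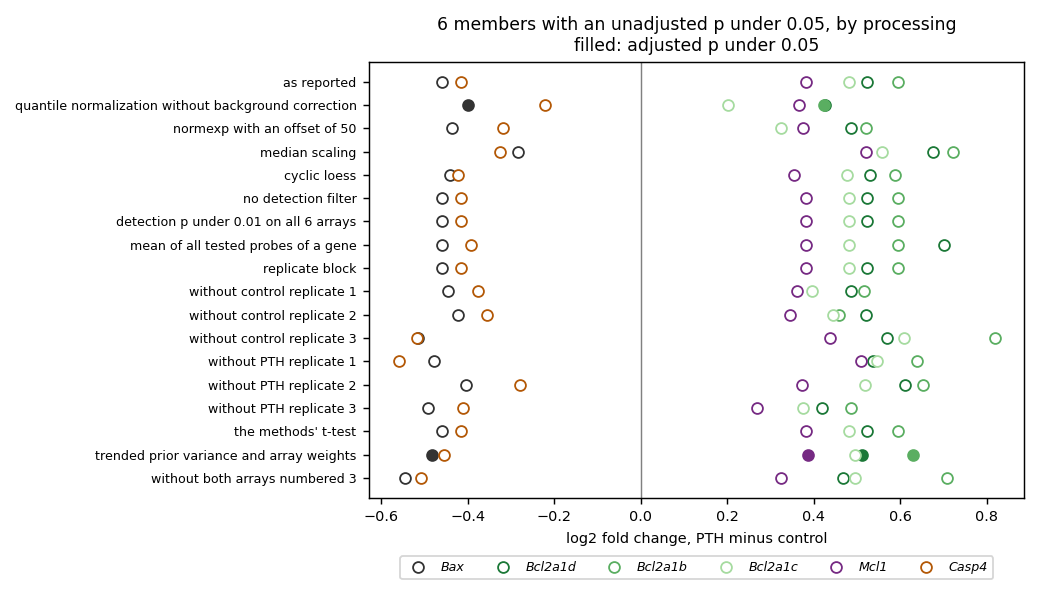
Log2 fold change of PTH over control (x axis) of the 6 members with an unadjusted p under 0.05, under the reported processing and 17 other settings (rows). Filled points have an adjusted p under 0.05 and occur in 2 rows only, quantile normalization without background correction and trended prior variance with array weights.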

How the data were processed

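The authors deposited, for 6 Illumina mouse arrays, the linear signal intensity of each probe, neither normalized nor background subtracted, and the detection p-value of each probe. GenomeStudio is named in the submitters' processing notes, and the authors' own normalized values were not used here. Median signal intensity was 111 to 129 per array, and the number of arrays limits the precision. Groups came from the sample labels. Signals were background corrected (normexp through the detection p-values, offset 16), quantile normalized and taken to log2 with neqc of limma 3.58.1 (R 4.3.3). Probes with a detection p under 0.05 on at least 3 of 6 arrays were compared by lmFit and eBayes. The p-values of all 16214 such probes were adjusted together (Benjamini-Hochberg). A gene was counted by its brightest tested probe. An exact permutation test of 3 against 3 arrays cannot give a p under 0.1. Named genes were the members called, at an unadjusted p under 0.05 or without overlap, the brightest of each role, pathway genes meeting the first or second criterion, and markers. The members, lists and tests were chosen with earlier results of these data known. Values of some genes, which stay in the counts, are not reported here. Symbols are those of the table. Of the 45 members, 38 matched RefSeq names directly, 5 as older names and 2 not at all, and promoters are from RefSeq (GRCm38.p6). The procedure was tested on simulated data, with 2, 26, 39 and 45 of 50 probes recovered at log2 changes of 0.5, 1, 1.5 and 2 and 9 false calls. Alternatives covered background correction, normalization, filter, probe choice, replicate block, each array left out and other tests.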

Additional observations from a re-analysis of the deposited data

How the results depend on the processing

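No member gene was called in the reported analysis, nor with any 1 array left out, but 3 were called with quantile normalization and no background correction and 4 with trended variances and array weights, settings in which the calls over all genes went from 207 to 589 and 649. With 1 array left out between 48 and 78 of all genes were called, and 44 with the replicate block. The count at an unadjusted p under 0.05, 6 as reported, was 2 with median scaling, where 6.7% of all genes had such a p. It was 3 by the methods' t-test (14.9% of all genes) and between 2 and 7 with 1 array left out (11.6% to 14.8%). The count without overlap, 6 as reported, was 2 with median scaling, where 11.4% of all genes did not overlap. It was between 7 and 12 with 1 array left out (29.5% to 34.4% of all genes) and 13 without both arrays numbered 3. That last setting was chosen after seeing the data, and 47.3% of all genes did not overlap in it. The pathway count, 1 as reported, was 4 with quantile normalization alone, where 4.92% of all genes were called, and 2 with an offset of 50 (3.36%). It was 2 with a detection p under 0.01 on all 6 arrays (3.92%) and 4 with trended variances and array weights (5.42%). It was 0 with median scaling, with the replicate block, with any 1 array left out and without both arrays numbered 3. In these last settings at most 0.868% of all genes were called. Deviations from the group mean correlated at 0.067, 0.064 and 0.273 between same-numbered arrays of the groups 1, 2 and 3. Of differently numbered arrays, those numbered 1 and 2 correlated at 0.070 and 0.073. Pairs holding 1 array numbered 3 correlated at -0.142 to -0.134. The deviations of the 3 arrays of a group sum to 0 for each probe. These correlations are therefore tied to each other, and the negative ones add nothing to the 0.273. The arrays numbered 3 deviated together by that value, and whether the numbers mark a pairing was not tested. With the replicate number as a block 0 members were called, beside 0.367% of all genes, and 6 had an unadjusted p under 0.05, beside 16.6%. The adjusted p of *Bax* (limma) ranged from 0.00709 to 0.983 over the other settings with all 6 arrays and from 0.192 to 0.345 with 1 array left out. The value of 0.983 is that of median scaling, where limma gave every member the same SE of 0.285. In the reported analysis the SE of *Bax* was 0.125. Median scaling moved the median of all genes to 0.12, and relative to this 3 of 29 members differed in sign. Over the settings that tested them (16 for *Bak1* and *Bcl2l1*, which a detection p under 0.01 on all 6 arrays removed, and 17 for the rest) 14 members held their sign, and the largest reported size among the other 15 was 0.34, that of *Bcl2*. The causes of these differences were not tested. A slide block could not be run because no slide was named.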
